A study of Sander lucioperca with 12 samples.

Results

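The comparison described here asks where the difference between piscivorous and planktivorous juvenile pikeperch (Sander lucioperca) was not the same in 2 survey years. It is the interaction of phenotype and year in whole-brain transcriptomes: the piscivore-minus-planktivore difference of 2023 less that of 2022, on the log2 scale. All 12 libraries of the series enter it, 3 in each of 4 groups, each from the brain of 1 fish in its first year of life. Of 32963 named genes in the count table, 21789 had enough counts to be tested. A positive interaction means that piscivores stood higher, relative to planktivores, in 2023 than in 2022, and a negative one the opposite.

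The fish came from Lipno Reservoir in the last week of August of each year and were sampled at night. Planktivores, the normal (N) phenotype, were trawled in the open water. Piscivores, labelled littoral (L) in 2022 and piscivorous/cannibal (C) in 2023, were seined near the shore. Piscivores were the longer fish in both years, and both phenotypes were smaller in 2023 than in 2022. Sex could not be told at this age. The groups were piscivores 1, 2 and 3 and planktivores 2, 3 and 4 of 2022, and piscivores 1, 2 and 4 and planktivores 4, 5 and 6 of 2023, numbered as the labels number them. No fish was treated. Phenotype goes together with body length, habitat and gear. Year goes together with the survey, with fish size and with any batch of preparation or sequencing that followed it, so these cannot be told apart. The title of planktivore 3 of 2022 ends in 2 and every other title ends in 1, with no meaning given.

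Several of the genes described below are known from the molecular clock or from hormone and nutrient responses. In vertebrate cells the clock is a feedback loop. The activators Clock and Bmal (arntl genes) switch on period, cryptochrome, ciart, nr1d and bhlhe40/41 genes, whose products in turn repress the activators. The PAR bZip factors Tef, Dbp and Hlf carry the rhythm to output genes, and Nfil3 competes with them. Many clock genes, per1 above all, also respond to glucocorticoids, and Krüppel-like factors (Klf) are zinc finger regulators of which several answer to glucocorticoids, thyroid hormone or fasting.

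Library size ran from 15327406 to 33858794 counts on named genes. The share of counts on ribosomal RNA genes lay between 12.0% and 21.0% in the libraries of 2022, and between 0.137% and 0.3595% in those of 2023. Neurotransmitter receptor genes (a sum of 3412 to 4902 CPM, the counts scaled to a library of 1000000) and myelin genes (10410 to 31640 CPM) were present in every library. In bulk RNA, fewer cells of a type and less RNA per cell cannot be told apart.

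Few genes passed the test of the interaction. With edgeR's quasi-likelihood test, at a Benjamini-Hochberg adjusted p below 0.05 and an absolute log2 value above 1, 3 genes were called, which is 0.0138% of the genes tested. The clock genes ciarta and per1b were positive and the Klf gene klf11a was negative. At an unadjusted p below 0.05, 1395 genes stood out, 3.31% of all genes with a positive interaction and 3.09% with a negative one. The same fit called 11 genes between the phenotypes in 2022 (0.0505%) and 5 in 2023 (0.0229%). With DESeq2 the order of the years was the reverse, with more genes called in 2023, as the last section gives. DESeq2 on the same counts called 88 genes in the interaction, 0.413% of those to which it gave an adjusted p. Of these, 65 were positive (0.305%) and 23 negative (0.108%). The median interaction of all genes tested lay at 0 to 2 decimals, where the scaling of the libraries tends to place it.

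Leaving out 1 library at a time moved the count between 0 and 8. It was 8 without piscivore 1 of 2022, 4 without piscivore 2 of 2023 and 2 without piscivore 4 of 2023. It was 1 without piscivore 2 of 2022 (ciarta), without planktivore 4 of 2023 (the muscle gene ckmb) or without planktivore 6 of 2023 (klf11a). No gene was called once piscivore 3 of 2022, any single planktivore of 2022, piscivore 1 of 2023 or planktivore 5 of 2023 was absent.

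**Figure D1:**
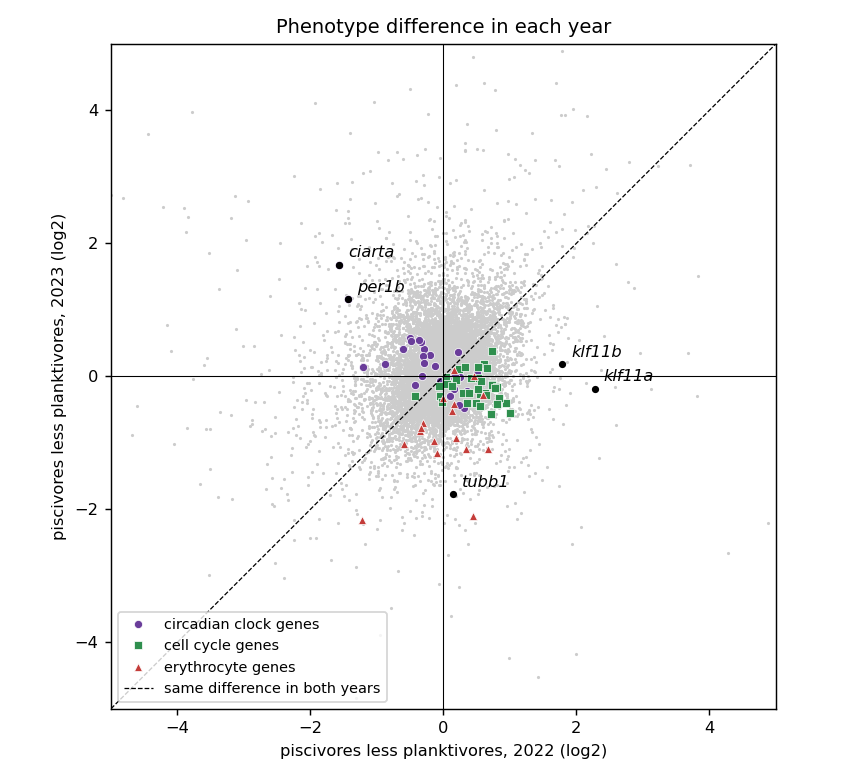
Phenotype difference (piscivores less planktivores, log2) of each gene in 2022 (horizontal axis) and in 2023 (vertical axis), with all genes tested in grey and 3 lists in colour. The dashed line marks the same difference in both years, and 34 genes lie beyond the axes. ciarta and per1b lie at the upper left, where piscivores were lower in 2022 and higher in 2023, while klf11a and klf11b lie to the right and tubb1 below the centre.

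The largest signal relative to its error belonged to ciarta, the gene of a circadian repressor that acts on the Clock and Bmal complex (chromosome 16, bases 13367687 to 13372391 of SLUC_FBN_1.2). In 2022 its level was 16.8, 8.35 and 15.6 CPM in piscivores 1, 2 and 3, and 40.3, 46.6 and 34.3 CPM in planktivores 2, 3 and 4. In 2023 it was 22.3, 20.8 and 32.7 CPM in piscivores 1, 2 and 4, and 6.67, 8.81 and 8.16 CPM in planktivores 4, 5 and 6. The groups did not overlap in either year, and the order turned round: planktivores were the higher group in 2022 and piscivores in 2023. The difference was -1.57 ± 0.26 in 2022 and 1.68 ± 0.26 in 2023 (log2, SE). The interaction was 3.25 ± 0.36 (edgeR quasi-likelihood test, adjusted p = 0.018). Between the years, the mean of the planktivores went from 40.4 to 7.88 CPM and that of the piscivores from 13.6 to 25.3 CPM.

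The period gene per1b, a core repressor of the clock (chromosome 17, bases 13800302 to 13818227), had the same pattern. In 2022 it was at 39.1, 28.2 and 35.8 CPM in piscivores 1, 2 and 3, and at 79.7, 102 and 97.3 CPM in planktivores 2, 3 and 4. The values of 2023 were 51.7, 42.7 and 82.0 CPM in piscivores 1, 2 and 4, and 20.8, 29.4 and 28.4 CPM in planktivores 4, 5 and 6. Again the groups were apart in both years and changed places. The difference was -1.43 ± 0.24 in 2022 and 1.17 ± 0.23 in 2023, and the interaction was 2.601 ± 0.33 (edgeR, adjusted p = 0.0398). Both genes met the rule set for a reversal, groups apart in both years in opposite directions with an absolute log2 difference above 1 in each.

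klf11a, one of a pair of Klf11 genes coding for zinc finger repressors (chromosome 19, bases 2405980 to 2420097), differed in 2022 and not in 2023. In 2022 it was at 13.7, 14.9 and 11.4 CPM in piscivores 1, 2 and 3, and at 2.31, 3.04 and 2.88 CPM in planktivores 2, 3 and 4. In 2023 it was at 5.30, 6.36 and 4.68 CPM in piscivores 1, 2 and 4, and at 7.25, 6.33 and 4.92 CPM in planktivores 4, 5 and 6. The groups of 2022 lay far apart, and those of 2023 overlapped between the 2022 levels. The difference was 2.28 ± 0.20 in 2022 (adjusted p = 0.0029) and -0.18 ± 0.19 in 2023 (adjusted p = 0.73), and the interaction was -2.46 ± 0.28 (edgeR, adjusted p = 0.018).

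The size of these interactions moved little with the choice of libraries, while the adjusted p often crossed 0.05. Over the 12 fits without 1 library, ciarta lay between 3.01 and 3.43 and was called in 4, per1b lay between 2.27 and 2.78 and was called in 3, and klf11a lay between -2.61 and -2.32 and was called in 3. DESeq2 called all 3 (adjusted p = 8.6e-13, 6.8e-10 and 1.5e-11 in the same order). In 2022, piscivore 2 and planktivore 3 stood apart from their groups in markers of the telencephalon (a sum of 18.5 CPM against 104 and 144 CPM, and of 92.8 CPM against 29.2 and 33.4 CPM). Without both, a choice made after the values were seen, only ciarta was called, with 2.89 (adjusted p = 0.047), while per1b had 2.42 (adjusted p = 0.35) and klf11a -2.44 (adjusted p = 0.23).

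**Figure D2:**
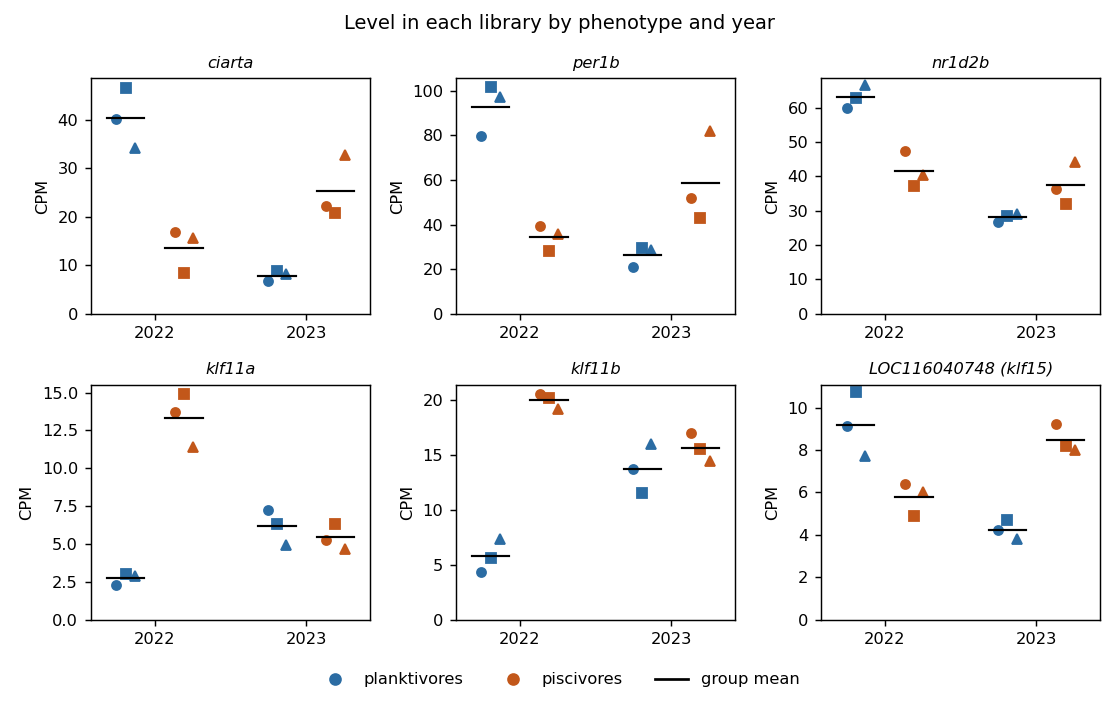
Level of 6 genes in each library (vertical axis, CPM from 0) by year, planktivores in blue and piscivores in orange, with a bar at the mean of each group of 3. ciarta, per1b, nr1d2b and LOC116040748 (klf15) are higher in planktivores in 2022 and in piscivores in 2023, and klf11a and klf11b are higher in piscivores in 2022, with overlapping groups in 2023.

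Beyond the called pair, much of the clock list leaned the same way. All 27 clock genes in the table were tested. Of these, 12 had a positive and 3 a negative interaction at an unadjusted p below 0.05, against 3.31% and 3.09% of all genes. The list median was 0.32, against 0 for all genes. It came from a median difference of -0.29 in 2022 and 0.16 in 2023. In 2022, 8 of the 27 were lower in piscivores without overlap and 2 higher, against 6.37% and 7.16% of all genes. In 2023, 8 were higher without overlap and 2 lower, against 9.87% and 10.2%. Only ciarta and per1b passed the adjusted test with edgeR, and DESeq2 called 4 of the list, all positive. Among these 4, tefb also belongs to the transcription factors that the study picked on these samples for their difference between phenotypes. Without any 1 library, between 10 and 13 members were positive at an unadjusted p below 0.05.

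Other members had the sign of ciarta and per1b without passing the adjusted test with edgeR. nr1d2b, coding for a Rev-erb nuclear receptor that represses Bmal genes, was at 47.5, 37.1 and 40.4 CPM in piscivores and at 60.0, 62.9 and 66.5 CPM in planktivores of 2022. A year later it was at 36.2, 31.9 and 44.1 CPM in piscivores and at 26.8, 28.5 and 29.0 CPM in planktivores. Its groups were apart in both years in opposite order, with smaller differences than the called pair. Its interaction was 1.02 ± 0.19 (adjusted p = 0.18), and its paralogue nr1d2a had 1.09 ± 0.32 (unadjusted p = 0.0056). per3, the other period gene that leaned this way, had -0.48 in 2022 and 0.53 in 2023, with an interaction of 1.01 ± 0.26 (unadjusted p = 0.0025). The bHLH repressor genes had interactions of 0.86 ± 0.20 for bhlhe41 and 0.70 ± 0.29 for bhlhe40. The cryptochrome genes had 1.06 ± 0.28 for cry1b and 0.53 ± 0.22 for cry1a. cipcb, a gene named for an inhibitor of Clock and not part of the list, was at -0.89 in 2022 and 0.40 in 2023 with its groups apart in both years (interaction 1.29 ± 0.23, adjusted p = 0.16).

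The output factors were split. tefb was lower in piscivores in 2022, at 85.6, 61.5 and 70.3 CPM against 198, 157 and 144 CPM, and overlapped in 2023, at 86.0, 81.4 and 121 CPM against 79.6, 104 and 78.9 CPM. Its interaction was 1.34 ± 0.28 (adjusted p = 0.26). dbpb had 0.91 ± 0.29 and dbpa 0.61 ± 0.23. The 3 negative members at an unadjusted p below 0.05 were arntl2, a Bmal activator gene (-0.78 ± 0.23), nfil3-5, which competes with the output factors (-0.68 ± 0.21), and tefa, the second Tef gene (-0.45 ± 0.18). The Clock genes clocka (-0.57 ± 0.32) and clockb (-0.35 ± 0.21) did not reach an unadjusted p of 0.05. per2, a period gene induced by light in fish, had an interaction of 0.15 ± 0.29, with differences of 0.21 in 2022 and 0.36 in 2023. The hour at which each fish was caught is not given in the sources used here, and its part in these values was not tested.

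**Figure D3:**
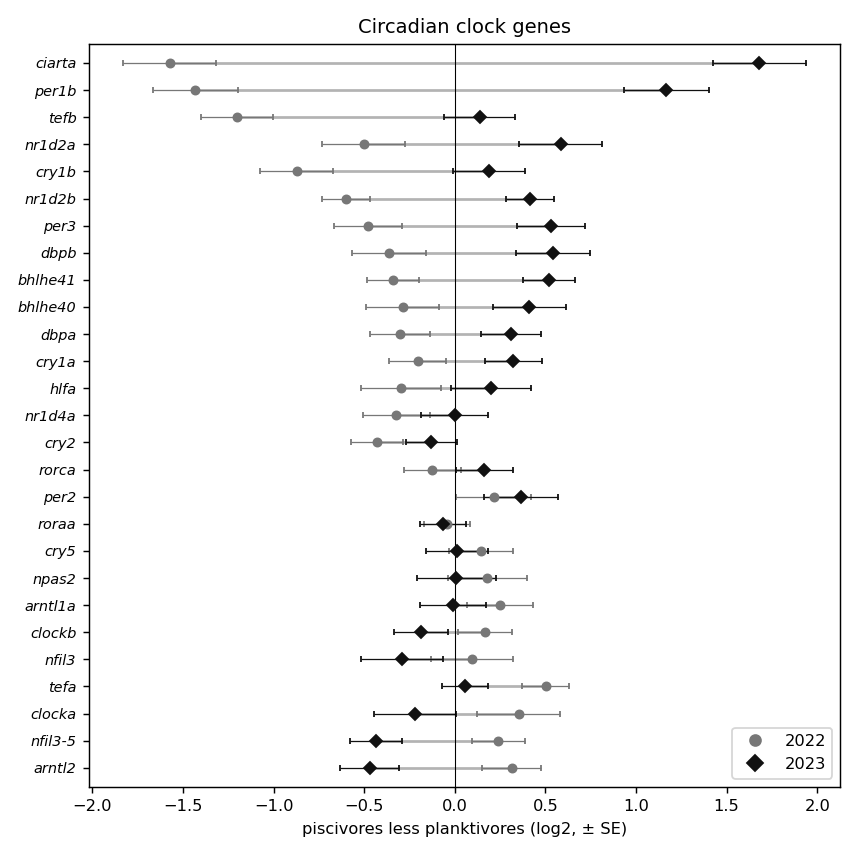
Phenotype difference (piscivores less planktivores, log2, with the SE as bars) of the 27 clock genes in 2022 (grey circles) and 2023 (black diamonds), ordered by the interaction. From ciarta down to hlfa the 2022 points lie left of 0 and the 2023 points right of it, and arntl2 and nfil3-5 at the bottom lie the other way.

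Among the Klf and Sp zinc finger genes, 27 of 29 were tested. At an unadjusted p below 0.05, 6 were positive and 2 negative (against 3.31% and 3.09%), with a list median of 0.25. The 2 negative ones were the Klf11 pair. Both are among the transcription factors that the study picked on these samples for their difference between phenotypes. So are LOC116040748, si:ch211-117k10.3, LOC116050231 and sp8a, which had positive interactions. The counts of the Klf and Sp list therefore come mostly from genes picked in that way and are not independent of that choice. klf11b was at 20.6, 20.2 and 19.18 CPM in piscivores and 4.33, 5.64 and 7.35 CPM in planktivores of 2022, and at 16.9, 15.5 and 14.4 CPM against 13.7, 11.5 and 15.9 CPM in 2023. As for klf11a, a gap in 2022 was followed by overlap in 2023. The klf11b mean went from 5.78 to 13.7 CPM between the planktivores of 2022 and 2023 and from 19.97 to 15.6 CPM between the piscivores, while klf11a went from 2.74 to 6.17 CPM and from 13.3 to 5.45 CPM. The klf11b interaction was -1.59 ± 0.26 (adjusted p = 0.14; DESeq2 adjusted p = 4.1e-05).

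The 3 genes that the study annotates as klf15, a Klf gene induced by glucocorticoids and fasting in mammals, had the opposite sign. LOC116040748 was at 6.42, 4.87 and 6.04 CPM in piscivores and 9.13, 10.7 and 7.70 CPM in planktivores of 2022. The values of 2023 were 9.21, 8.20 and 7.98 CPM in piscivores and 4.23, 4.71 and 3.83 CPM in planktivores. Its groups were apart in both years and exchanged order, though with log2 differences of -0.67 and 0.99 it did not reach the fold of the reversal rule. The interaction was 1.66 ± 0.24 (adjusted p = 0.09). The other copies, si:ch211-117k10.3 (1.79 ± 0.43) and LOC116050231 (1.48 ± 0.49), were lower in piscivores in 2022 without overlap, by -1.59 and -1.76, and near equal in 2023, at 0.20 and -0.28. The study lists LOC116050231 under the planktivores of 2023, unlike the gap of 2022 found here. klf9, a thyroid hormone and glucocorticoid target, had 0.94 ± 0.32 and klf3 0.59 ± 0.20. sp8a, a regulator of forebrain development, had 1.72 ± 0.64 at levels of 3.05 CPM and less.

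The list of genes known to answer glucocorticoids or fasting shares its Klf members and per1b with the lists above. Of its 34 genes, 14 were positive and 3 negative at an unadjusted p below 0.05, against 3.31% and 3.09% of all genes, and the median interaction was 0.61. The median difference was -0.34 in 2022 and 0.18 in 2023. In 2022, 13 were lower in piscivores without overlap and 3 higher, against 6.37% and 7.16% of all genes. In 2023, 6 were higher and 0 lower, against 9.87% and 10.2%, so that the 2022 count of lower members stood farther from its background than the 2023 count of higher ones. Without any 1 library, 13 to 16 were positive. DESeq2 called 6 positive and 2 negative members, among them klf11a, klf11b, LOC116040748, si:ch211-117k10.3 and cbx7a. These genes, most of those called, also belong to the transcription factors that the study picked on these samples for their difference between phenotypes. The counts of the glucocorticoid and fasting list are therefore not fully independent of that choice.

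fkbp5, a co-chaperone of the glucocorticoid receptor and a standard readout of its activity, was at 48.8, 18.9 and 25.8 CPM in piscivores and 111, 64.7 and 65.7 CPM in planktivores of 2022. The values of 2023 were 75.8, 47.5 and 85.0 CPM against 51.9, 62.2 and 73.0 CPM, so that only the groups of 2022 were apart. Its interaction was 1.53 ± 0.49 (unadjusted p = 0.0099). cebpd, coding for a stress-induced bZip factor, was at 9.76, 8.12 and 10.4 CPM against 20.7, 22.1 and 26.5 CPM in 2022, and at 15.8, 7.76 and 18.2 CPM in the piscivores of 2023. Planktivores 4 and 5 of 2023 had 7.17 and 6.11 CPM, and planktivore 6 lay above piscivore 2, so the groups overlapped. The cebpd interaction was 2.13 ± 0.40 (adjusted p = 0.19). ddit4, an inhibitor of mTOR signalling, had -1.23 in 2022 and -0.11 in 2023 (interaction 1.12 ± 0.27).

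The Polycomb gene cbx7a was at 26.5, 23.1 and 27.0 CPM in piscivores and 53.2, 57.5 and 47.3 CPM in planktivores of 2022, and at 32.7, 24 and 37.2 CPM against 18.2, 25.9 and 26.4 CPM in 2023 (interaction 1.46 ± 0.26, adjusted p = 0.16). The glucocorticoid receptor gene nr3c1 itself differed little, at -0.30 in 2022 and 0.11 in 2023 (interaction 0.41 ± 0.14, unadjusted p = 0.012). tsc22d3, another receptor target, was near equal in 2022 (0.06) and higher in piscivores in 2023 (0.63), with 0.56 ± 0.19. hsd11b2, which inactivates cortisol, went the other way, with 1.08 in 2022, 0.54 in 2023 and an interaction of -0.54 ± 0.24. irs2a, txnipa and LOC116065701 (annotated by the study as fbxo33) were positive with 0.90, 0.66 and 1.07. LOC116065701 is also among the transcription factors that the study picked.

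Cell cycle genes leaned negative. All 36 were tested, 35 had a negative interaction, and 17 of these had an unadjusted p below 0.05, against 3.09% of all genes. None was positive at that p. The list median was -0.64, from 0.53 in 2022 and -0.16 in 2023. In 2022, 16 of the 36 were higher in piscivores without overlap and 1 lower, against 7.16% and 6.37% of all genes. In 2023, 1 was higher and 6 lower, against 9.87% and 10.2%. No member passed the adjusted test with edgeR, and DESeq2 called 3, all negative. Leaving out 1 library gave 14 to 20 members with an unadjusted p below 0.05, and the number was 11 without both libraries of 2022 that stood apart in telencephalon markers.

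tpx2, which organises the mitotic spindle, was at 10.6, 12.3 and 7.67 CPM in piscivores and 5.37, 5 and 7.03 CPM in planktivores of 2022, and at 10.5, 7.88 and 10.02 CPM against 13.4, 11.3 and 13.4 CPM in 2023. The groups were apart in both years with the order exchanged (interaction -1.23 ± 0.28, adjusted p = 0.33). The cyclin gene ccnb1, which drives entry into mitosis, was at 3.15, 3.81 and 3.21 CPM against 1.55, 1.18 and 2.33 CPM in 2022, and at 4.66, 4.77 and 3.99 CPM against 7.75, 4.93 and 7.00 CPM in 2023 (-1.55 ± 0.37). The mitotic kinase gene plk1 had -1.17 ± 0.28, the checkpoint gene bub1bb -0.93 ± 0.25, the topoisomerase gene top2a -0.95 ± 0.31 and the proliferation marker mki67 -0.92 ± 0.33. For mki67 the mean went from 13.5 to 32.02 CPM between the planktivores of 2022 and of 2023, and from 21.2 to 26.4 CPM between the piscivores. The replication gene pcna, in contrast, had -0.25 ± 0.28. The chromosome condensation gene cdca2, outside the list, showed its gap in 2023, at 5.54, 5.09 and 4.74 CPM against 10.9, 8.26 and 10.9 CPM (-1.09 ± 0.21, adjusted p = 0.22).

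**Figure D4:**
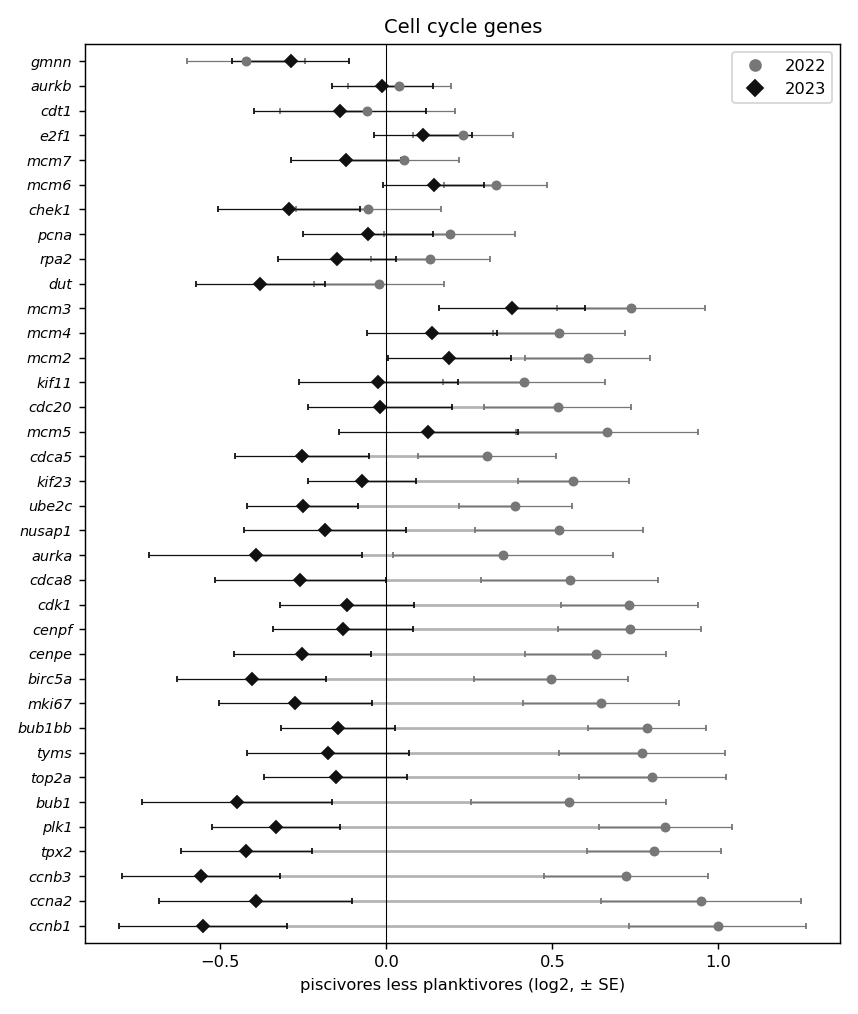
Phenotype difference (piscivores less planktivores, log2, with the SE as bars) of the 36 cell cycle genes in 2022 (grey circles) and 2023 (black diamonds), ordered by the interaction. The 2022 points lie mostly right of 0 and the 2023 points at or left of it, and the mitotic genes at the bottom, down to ccnb1, are the farthest apart.

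Red blood cell genes were higher in the planktivores of 2023. All 17 genes of the list had a negative interaction, 4 of them with an unadjusted p below 0.05 (against 3.09%), and the median was -0.65, from 0.12 in 2022 and -0.81 in 2023. The summed level of the list was 469 to 754 CPM in piscivores and 522 to 592 CPM in planktivores of 2022. In 2023 it was 497 to 771 CPM in piscivores and 785 to 1407 CPM in planktivores. The count was 7 without piscivore 1 of 2022 and 8 without planktivore 5 of 2023. It was 3 without piscivore 2 of 2022, piscivore 1 of 2023, planktivore 4 of 2023 or planktivore 6 of 2023. Without both libraries of 2022 that stood apart in telencephalon markers it was also 3. Without 1 library the median ran from -0.87 to -0.32, the latter without piscivore 2 of 2022.

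nt5c2l1, a nucleotidase gene of the list, was at 1.97, 6.61 and 3.05 CPM against 3.39, 2.33 and 2.91 CPM in 2022, and at 5.97, 5.98 and 6.89 CPM against 26.0, 18.8 and 36.3 CPM in 2023 (-2.54 ± 0.52, adjusted p = 0.26). slc4a1a, the anion exchanger of the red cell membrane, had -1.75 ± 0.57, the carbonic anhydrase gene cahz -1.12 ± 0.47 and the transferrin receptor gene tfr1a -0.87 ± 0.23. The study had picked slc4a1a on these samples for its difference between phenotypes. LOC116044343, annotated by the study as a haemoglobin alpha subunit gene (hbae5), met the reversal rule. It was at 644, 2875 and 1450 CPM in piscivores and 515, 639 and 326 CPM in planktivores of 2022, and at 1365, 2133 and 1315 CPM against 7494, 3348 and 4200 CPM in 2023. The difference was 1.75 in 2022 and -1.64 in 2023, and the interaction was -3.39 ± 0.71 (adjusted p = 0.27; DESeq2 adjusted p = 0.00016). Near-identical haemoglobin copies may share its reads. How much blood each brain held was not tested.

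Markers of brain regions and of tissue next to the brain differed between libraries of the same group, and some of them moved with phenotype and year. The telencephalon markers foxg1a and tbr1b varied by over 10-fold within both groups of 2022. In 2022 foxg1a stood at 21.9, 0.168 and 25.2 CPM in piscivores and 0.141, 14.0 and 0.288 CPM in planktivores, and at 25.3, 10.2 and 11.3 CPM against 0.580, 1.40 and 0.132 CPM in 2023. Its groups overlapped in 2022 and were apart in 2023, with an interaction of 2.73 ± 2.29 (unadjusted p = 0.26). tbr1b had 2.15 ± 2.06. Both turned negative without planktivore 3 of 2022, at -1.67 and -1.35. None of the 5 telencephalon markers or 22 hox genes tested had an unadjusted p below 0.05.

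Hypothalamic genes summed to 149 to 274 CPM in 2022 and to 235 to 583 CPM in 2023. The years overlapped through planktivore 6 of 2023, the lowest of its year, and the phenotypes overlapped in 2022. Of 24 tested, 4 were positive and 0 negative at an unadjusted p below 0.05 (against 3.31% and 3.09%), with a median of 1.06. The count was 7 without planktivore 4 of 2022, 2 with the telencephalon covariate, 1 with the replicate block, and 0 with at least 10 counts in every library, a filter that keeps 8 of the 24. The median was 1.86 without piscivore 1 of 2022, 0.70 without piscivore 1 of 2023 and 0.49 without planktivore 3 of 2022. pmchl, coding for a melanin-concentrating hormone precursor, was at 0, 0.056 and 0.105 CPM in piscivores and 2.21, 22.7 and 0.575 CPM in planktivores of 2022. The values of 2023 were 45.5, 36.9 and 25.7 CPM in piscivores and 38.1 and 30.7 CPM in planktivores 5 and 6, with planktivore 4 the highest of all libraries. The hypocretin gene hcrt, which promotes wakefulness and feeding, was at 0.459, 0.112 and 0.105 CPM against 1.79, 2.095 and 0.224 CPM in 2022, and at 2.68, 3.81 and 3.68 CPM against 2.98, 2.72 and 3.80 CPM in 2023 (2.72 ± 0.96, unadjusted p = 0.016). nkx2.4a, a hypothalamic homeobox gene, had 2.82 ± 1.12 and is also among the transcription factors that the study picked. On the same scale, the floor of 3 counts was 0.158 to 0.197 CPM in the piscivores of 2022, so their pmchl values lay below it and 2 of their 3 hcrt values did too.

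The pituitary list summed to 8.2 to 45.9 CPM in the 6 libraries of 2022, and to 2617, 2375 and 23.6 CPM in piscivores 1, 2 and 4 and 597, 33.8 and 30.9 CPM in planktivores 4, 5 and 6 of 2023. Growth hormone (gh1) had 0 counts in every piscivore of 2022 and was at 694, 1090 and 0 CPM in the piscivores and 78.8, 0 and 0 CPM in the planktivores of 2023. Pituitary genes were thus abundant in 3 libraries, all of 2023. DESeq2 called gh1 and edgeR did not (adjusted p = 0.81). Skeletal muscle genes summed to 205 to 250 CPM in the planktivores and 138 to 183 CPM in the piscivores of 2022, and to 140 to 178 CPM and 105.7 to 131 CPM in 2023. ckmb, muscle creatine kinase, was at 0.786, 0.336 and 0.631 CPM against 8.90, 8.21 and 6.84 CPM in 2022 and overlapped in 2023, at 2.28, 3.94 and 3.53 CPM against 8.20, 1.16 and 0.760 CPM (3.73 ± 1.07, unadjusted p = 0.0053). edgeR called ckmb only without planktivore 4 of 2023 (adjusted p = 0.0077). The part of pituitary, muscle or blood in the clock, Klf and cell cycle values was not tested. With the summed telencephalon markers as a covariate, ciarta, per1b and klf11a were called with 3.13, 2.52 and -2.40. Of the 5 markers, 4 were higher in the piscivores of 2023 without overlap. The covariate thus goes partly with phenotype and does not separate the share of telencephalon from it.

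**Figure D5:**
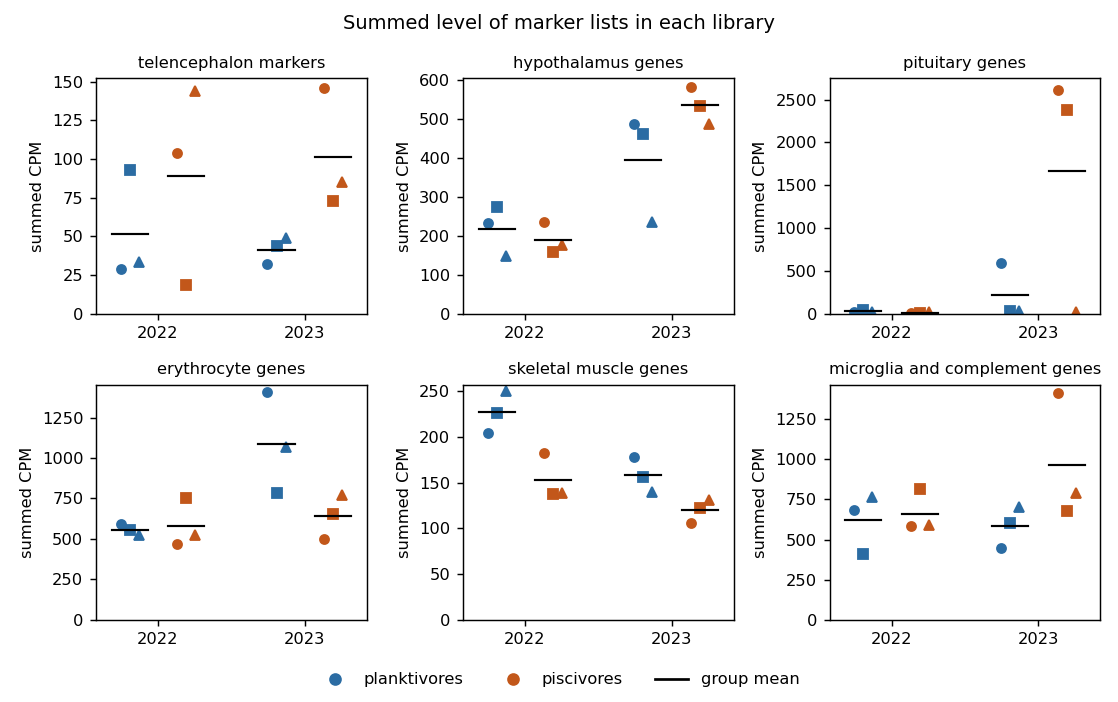
Summed level of 6 marker lists in each library (vertical axis, CPM from 0) by year, planktivores in blue and piscivores in orange, with a bar at the mean of each group of 3. Telencephalon markers are split within both groups of 2022, pituitary genes are high in 3 libraries of 2023, and erythrocyte genes are highest in the planktivores of 2023.

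Lipid genes showed a mixed picture. Of 58 tested sterol, fatty acid and apolipoprotein genes, 4 were positive and 8 negative at an unadjusted p below 0.05 (against 3.31% and 3.09%), with a median of -0.13. Several of the negative ones code for enzymes of cholesterol synthesis. sqlea, squalene epoxidase, was at 16.9, 38.0 and 24.6 CPM against 7.25, 6.66 and 11.7 CPM in 2022, and overlapped in 2023, at 19.8, 24.41 and 18.6 CPM against 20.3, 13.5 and 24.3 CPM (-1.52 ± 0.44). dhcr7 and hmgcs1 had -0.70 and -0.79, also from a gap in 2022 and none in 2023. The count of negative members was 1 without both libraries of 2022 that stood apart. It was 4 without piscivore 2 of 2022, planktivore 2 of 2022, piscivore 1 of 2023 or piscivore 4 of 2023, and 5 without planktivore 3 of 2022, planktivore 4 of 2023 or planktivore 6 of 2023. elovl8b, a fatty acid elongase gene, had -1.14 ± 0.36.

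Both apoba and lpl were positive. apoba, an apolipoprotein B gene, was at 0.197, 0.168 and 0.473 CPM against 0.894, 1.72 and 0.448 CPM in 2022, and at 2.38, 2.67 and 2.64 CPM against 0.622, 0.688 and 0.561 CPM in 2023 (3.86 ± 0.69, adjusted p = 0.16). The apoba groups overlapped in 2022, when piscivores 1 and 2 lay at the floor of 3 counts. lpl, lipoprotein lipase, had -0.41 in 2022 and 1.22 in 2023 (1.63 ± 0.44), and its groups were apart in 2023 alone.

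Among 29 insulin and IGF signalling genes, 6 were positive and 1 negative at an unadjusted p below 0.05, against 3.31% and 3.09% of all genes, and a single negative member is near that background. It was igf1, the growth factor gene itself. It was at 11.1, 22.7 and 10.2 CPM in piscivores and 4.75, 3.51 and 3.93 CPM in planktivores of 2022, and at 5.22, 11.8 and 11 CPM against 10.7, 6.47 and 6.77 CPM in 2023 (-1.64 ± 0.52). The positive ones included socs3a, a feedback inhibitor of cytokine and growth hormone signalling (2.27 ± 0.58), igfbp1a, an IGF binding protein gene raised by fasting in fish (0.95 ± 0.31), and the growth hormone receptor gene ghra (0.77 ± 0.27). socs3a was at 1.90, 2.52 and 2.42 CPM against 5.79, 4.19 and 6.39 CPM in 2022, and overlapped in 2023. Without piscivore 1 of 2022 the negative count was 3. It was 2 without piscivore 2 of 2023, piscivore 4 of 2023 or planktivore 6 of 2023, and 0 without both libraries of 2022 that stood apart.

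Immune lists leaned positive without firm members. Of 29 interferon and antigen presentation genes, 28 had a positive interaction (median 0.83), and 2 had an unadjusted p below 0.05. Of 23 microglia and complement genes, 20 were positive (median 0.77), 3 of them at that p, and 1 was negative at it. Among all genes, 10890 of 21789 were positive, and 3.31% were positive and 3.09% negative at that p. The interferon count and the single negative microglia gene are near those shares. c4b, a complement gene, was at 14.6, 15.4 and 10.1 CPM against 10.5, 5.03 and 23.2 CPM in 2022, and at 92.3, 13.0 and 42.4 CPM against 6.55, 8.83 and 12.6 CPM in 2023 (2.36 ± 0.94). c1qb had 2.17 ± 0.77 and c1qa 1.68 ± 0.74. In these genes piscivore 1 of 2023 was the highest library, at 34.5 and 34.3 CPM for c1qb and c1qa. The positive count moved with single libraries, from 0 to 17 for the interferon list, with 17 without planktivore 3 of 2022, 8 without piscivore 2 of 2023, 7 without piscivore 2 of 2022, 4 without planktivore 6 of 2023 and 0 without planktivore 4 of 2022 or piscivore 1 of 2023. It was 1 without piscivore 1 of 2022, piscivore 3 of 2022, piscivore 4 of 2023 or planktivore 5 of 2023. For the microglia list it ran from 1 to 7, with 7 without planktivore 3 of 2022 and 1 without piscivore 3 of 2022, planktivore 4 of 2022, piscivore 1 of 2023, planktivore 4 of 2023 or planktivore 5 of 2023. Without both libraries of 2022 that stood apart, the counts were 18 and 9.

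Outside the lists described so far, the genes with the next smallest p were mostly differences of 1 year. None passed the adjusted test with edgeR, while DESeq2 called tubb1, ap3s1, trnai-uau_9, tdh, prodha, purg, znf395b and LOC116056321 among those described next. tubb1, a beta tubulin gene known from platelets in mammals, was at 5.96, 8.91 and 8.30 CPM against 7.67, 6.86 and 6.49 CPM in 2022, and at 7.68, 9.47 and 10.97 CPM against 38.1, 25.8 and 32.2 CPM in 2023. The planktivores of 2023 stood alone (interaction -1.92 ± 0.28, adjusted p = 0.09; DESeq2 adjusted p = 1.4e-06). ap3s1, a subunit of a vesicle adaptor complex, was at 18.5, 23.3 and 25.1 CPM against 23.2, 23.99 and 17.4 CPM in 2022, and at 30.7, 35.5 and 27.5 CPM against 11.4, 11.3 and 9.71 CPM in 2023 (1.48 ± 0.23, adjusted p = 0.12; DESeq2 adjusted p = 4.3e-05). Its gap lay in 2023. The transfer RNA gene trnai-uau_9 also differed in 2023, at 0.643, 1.33 and 0.833 CPM against 13.3, 4.51 and 15.2 CPM (-3.71 ± 0.62, DESeq2 adjusted p = 2.0e-05), and copies of it may share reads.

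Other genes differed in 2022. tdh, threonine dehydrogenase, was at 29.3, 21.4 and 22.3 CPM against 48.6, 62.3 and 58.5 CPM in 2022, and at 70.3, 56.1 and 67.3 CPM against 59.8, 53.7 and 46.1 CPM in 2023 (1.498 ± 0.23, adjusted p = 0.098; DESeq2 adjusted p = 3.5e-06). prodha, proline dehydrogenase, had -1.15 in 2022 and 0.01 in 2023 (1.16 ± 0.20, DESeq2 adjusted p = 0.00028). purg, a single-stranded nucleic acid binding protein gene, was the higher in the piscivores of 2022, at 41.9, 46.8 and 45.9 CPM against 15.6, 21.2 and 23.5 CPM, and equal in 2023, at 30.3, 27.2 and 31.2 CPM against 30.7, 29.97 and 32.04 CPM (-1.22 ± 0.20, adjusted p = 0.14; DESeq2 adjusted p = 4.5e-05). The zinc finger genes znf395b and LOC116056321 (annotated as znf395a) had -1.39 and -1.24 in 2022 and 0.17 and 0.25 in 2023. Both are among the transcription factors that the study picked on these samples. LOC116067703, annotated as the vitamin D receptor gene vdrb, had -1.24 and -0.26. The study picked vdrb among these transcription factors as well.

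Some genes exchanged order between the years with smaller differences in at least 1 year. LOC116041221, annotated as grb10a, an adaptor of the insulin receptor, had -1.34 in 2022 and 0.38 in 2023 (1.72, adjusted p = 0.16). acot11b, an acyl-CoA thioesterase gene, had -0.73 in 2022 and 0.63 in 2023, LOC116057702 had -0.70 and 0.98, si:dkey-177p2.6 had -0.87 and 0.34, and si:ch211-266i6.3 had 1.08 and -0.52, all with groups apart in both years. cbln2b, a synaptic organiser gene, had -0.53 and 0.57 (1.102 ± 0.24, adjusted p = 0.29) at levels of 90.5 CPM or more. None of these 6 genes passed the adjusted test with edgeR, and DESeq2 called each of them.

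In all, 156 genes (0.716% of those tested) had groups that did not overlap in either year and lay in opposite order, 69 of them lower in piscivores in 2022 and 87 higher. In the same order in both years were 372 genes higher and 252 lower in piscivores. With an absolute log2 difference above 1 in both years, 10 genes (0.0459%) were left. Besides ciarta, per1b and LOC116044343 these were 7 genes of low level. None of the 7 passed the adjusted test with edgeR, and DESeq2 called cacng6b, abcg2d and fastk.

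cacng6b, a calcium channel gamma subunit gene, was at 0.262, 0.336 and 0.210 CPM against 0.424, 1.11 and 0.575 CPM in 2022, and at 2.44, 3.81 and 3.93 CPM against 1.08, 0.605 and 0.760 CPM in 2023 (3.45 ± 0.59, adjusted p = 0.16; DESeq2 adjusted p = 0.0013). abcg2d, an efflux transporter gene, was at 0.590, 0.392 and 0.578 CPM against 1.04, 2.47 and 0.703 CPM in 2022, and at 3.03, 7.18 and 4.39 CPM against 1.70, 0.660 and 0.462 CPM in 2023 (3.81 ± 0.82, adjusted p = 0.28; DESeq2 adjusted p = 0.0046). In both genes every piscivore of 2023 lay above every piscivore of 2022, while the planktivores of the 2 years overlapped. fastk rested on few counts, with 10 and 81 in the piscivores and planktivores of 2022 and 33 and 0 in those of 2023 (DESeq2 adjusted p = 0.029). LOC116037089, LOC116051046 and LOC118495829 were under 1 CPM in every library. tmub1 had 1.30 and -1.102, with an interaction of -2.40 ± 1.52 (unadjusted p = 0.14).

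Of 43 tested transcription factors that the study had picked on these samples for their difference between phenotypes, 37 had a positive interaction, 12 at an unadjusted p below 0.05 and 3 negative at it (against 3.31% and 3.09%), so this list is not independent evidence of a direction. DESeq2 called 6 positive and 2 negative ones. Of the 21 Slc transporters that the study had picked, 4 were positive and 1 negative at that p. The highest was LOC116039652, annotated as the glutamate transporter slc1a1, at 0.917, 0.168 and 0.0525 CPM against 0.471, 3.18 and 0.479 CPM in 2022 and 5.06, 3.81 and 5.54 CPM against 0.332, 0.358 and 0.132 CPM in 2023 (6.04 ± 1.28, adjusted p = 0.28). For LOC116039652, piscivores 2 and 3 of 2022 lay at or below the floor of 3 counts. LOC116061615, annotated as slc16a12b, had 0.29 in 2022 and 2.13 in 2023. In the picked list the positive count was 7 without piscivore 3 of 2022 and 2 without both libraries of 2022 that stood apart. Over all 278 Slc genes tested, 10 were positive and 10 negative, a share near the 3.31% and 3.09% of all genes. The positive count was 18 without piscivore 3 of 2022 and 16 without planktivore 4 of 2023, and the negative one 6 without piscivore 2 of 2022 and 5 without planktivore 6 of 2023. slc25a55a and slc16a1a, a mitochondrial carrier and a monocarboxylate transporter gene, were lower in the piscivores of 2023 without overlap, with interactions of -1.07 and -1.08.

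Genes of neuronal activity did not stand out in the interaction. None of 31 immediate early genes had an unadjusted p below 0.05, and fosab, a classical activity marker, had -2.03 in 2022 and -1.64 in 2023 (interaction 0.39 ± 1.22). The count for the immediate early genes was 6 without planktivore 6 of 2023, 5 without piscivore 1 of 2022 and 3 without planktivore 2 of 2022. With the replicate block it was 9, all positive. None of 56 neurotransmitter receptor genes had an unadjusted p below 0.05 either, though 7 did with the replicate block. Of 76 ribosomal protein genes, 73 had a positive interaction, with a median of 0.20 and none at that p. The sign of this median turned, to -0.03 without planktivore 2 of 2022 and to -0.38 with the replicate block. Of 71 respiratory chain genes, 66 were negative, with a median of -0.28 and 6 at that p, against 3.09% of all genes. Without 1 library the count ran from 1 without piscivore 2 of 2022 or piscivore 1 of 2023 to 17 without piscivore 2 of 2023. It was 10 without planktivore 2 of 2022, and 2 or 3 without planktivore 3 or 4 of 2022, piscivore 4 of 2023 or planktivore 4 or 6 of 2023. The same count was 48 with the replicate block, 10 with DESeq2 and 1 without both libraries of 2022 that stood apart. Of 51 nuclear receptor genes, 6 were positive and 1 negative, against 3.31% and 3.09% of all genes (10 positive without piscivore 1 of 2022). The negative count was 2 without piscivore 4 of 2023 and 0 without piscivore 2, piscivore 3, planktivore 2 or planktivore 3 of 2022, or piscivore 2 or planktivore 6 of 2023. Positive members were, among others, nr1d2a, nr1d2b and pparaa (0.87 ± 0.23), a sensor of fatty acids. nr1d2a and nr1d2b are also described above with the clock list, so the counts of the lists overlap.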

How the data were processed

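Poly(A) RNA of whole juvenile brains was sequenced, 1 library per fish. According to the study's methods, the authors trimmed reads with Trimmomatic, aligned them with STAR 2.5.2 (version as in the submitters' processing notes) to SLUC_FBN_1.2 and counted them per gene with featureCounts, and the deposited count table holds these raw counts. The deposited TPM values of the same libraries, made by the authors, served only as an alternative scale for list medians. Separate deposited tables of the 2022 libraries, which repeat the same columns, were not used.

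Groups came from the sample labels. Left out were 24 lines without a gene name (0.589% to 3.18% of a library's counts). Genes were filtered with filterByExpr, scaled by TMM and fitted in edgeR 4.0.16 (R 4.3.3) by the robust quasi-likelihood test with 1 coefficient per group over all 12 libraries, which leaves 8 residual degrees of freedom. The interaction and each year's difference are contrasts of that fit. Log2 values are given ± SE, from the fit's F value. P-values were adjusted by Benjamini-Hochberg over all genes, and calls needed both an adjusted p below 0.05 and more than 1 log2 unit. CPM are TMM-scaled. DESeq2 1.42.0 gave 1 alternative, and adjusted p-values it gave as NA stayed NA. Gene positions were taken from an annotation table of the same assembly, in which 31453 of 32963 gene names were found. On simulated counts with 200 genes changed by a log2 interaction of 2, edgeR recovered 72.5% and DESeq2 81.5%, with 6 and 32 other genes called among 21606. DESeq2 thus called more unchanged genes, a limit on genes that it alone called. The changed genes all had a mean above 1 CPM, so the recovery does not cover genes of lower level. The p-values set each contrast of groups of 3 against the spread between these fish.

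The 39 gene lists and the comparison itself were chosen with earlier results of these data known. Named were every called gene, every reversed gene, the next genes by p up to 30 with an absolute log2 above 1, the 4 list members with the smallest p (all members in lists of 12 or fewer) and a few genes fixed by name. Other list members, cdca2 and the grouping of genes by year were picked after their values were seen. Names credited to the study's annotation are its labels for numbered loci. Alternatives were DESeq2, its size factors, 2 filters, dropping ribosomal RNA and the 20 most counted genes, adjusted p alone, a replicate block, a telencephalon covariate and leaving out each library. No sequences are shown.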

Additional observations from a re-analysis of the deposited data

Results flagged for a closer look

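3 genes had a phenotype difference that differed between the 2 years by the test of the interaction itself (edgeR, adjusted p below 0.05): ciarta with 3.25, per1b with 2.601 and klf11a with -2.46 (log2, 2023 less 2022). In each, every library of one phenotype lay above every library of the other in 2022, and in ciarta and per1b the reverse held in 2023. Groups of 3 were not tested for single outlying libraries.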

How the results depend on the processing

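The interaction calls numbered 3 and were 88 with DESeq2, 0 with the replicate block (3 residual degrees of freedom; the fish share only a number, with r = -0.305 to 0.137 between same-numbered deviations, above 0.1 in 1 of 8 pairs), 1 without both libraries of 2022 that stood apart and 0 to 8 without 1 library. The calls of 2022 were 11, and 135 with DESeq2, 22 without a filter, 20 with at least 10 counts in every library, 0 with the replicate block, 18 with the telencephalon covariate, 6 without both libraries and 1 to 29 without 1 library. Those of 2023 were 5, and 287, 14, 15, 0, 0 and 18 under the same settings, and 0 to 21 without 1 library. The reversed genes were 10, and 25 without a filter, 3 with at least 10 counts, 156 with no minimum fold and 12 to 37 without 1 library. Under the replicate block ciarta, per1b and klf11a had 3.65, 3.11 and -2.74 (adjusted p = 0.38, 0.22 and 0.38), and over all other settings that keep every library their adjusted p stayed below 0.05. Among the genes named, signs turned in clocka (0.11) under the block, in foxg1a (-2.25) and tbr1b (-1.94) without both libraries, and without 1 library in per2 (-0.029 to 0.37), foxg1a (-1.67 to 3.78), tbr1b (-1.35 to 3.04) and fosab (-0.31 to 1.65). List medians moved by less than the spread between replicates with log2(TPM + 1) or DESeq2 size factors. Depth limits the genes at a few counts per library, such as fastk. The 2 libraries were chosen after the values were seen.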
